A study of Mus musculus with 399 samples.

Results

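Soleus muscle of TALLYHO/Jng (TH) mice was compared with soleus muscle of C57BL/6J (B6) mice, both fed a high-fat diet until 20 weeks of age. The comparison took every library labelled as TH or B6 soleus on high-fat at that age, 12 TH (6 female, 6 male) and 12 B6 (6 female, 6 male), which are 24 of the 97 soleus libraries and of the 399 libraries of the whole series. The mice were weaned at 4 weeks and then ate the high-fat diet for 16 weeks. Each library is poly(A) RNA-seq of 1 mouse, and 20 of the 24 mice also gave a liver library and 23 a fat library. For a comparison of diets, 12 TH and 12 B6 soleus libraries of the same age on chow were added.

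TALLYHO/Jng is an inbred line with polygenic obesity in which males are prone to type 2 diabetes, and C57BL/6J is the common inbred laboratory strain. The strains differ across the whole genome, so a difference between them is a strain difference that no single allele, nor body weight or blood glucose, can be read from here. The soleus is a small postural calf muscle that in mice mixes slow type I fibres with fast oxidative type IIa fibres, whereas the muscles beside it are mostly fast. Type I, IIa, IIx and IIb fibres each use their own myosin heavy chain, and slow fibres carry their own troponins, light chains and calcium pump.

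Library totals were 7552456 to 16390876 counts in TH (median 10904442) and 5428102 to 22050846 counts in B6 (median 12970080). Xist and 4 Y-linked genes matched the labelled sex in all 24 libraries. Nnt, the mitochondrial transhydrogenase in which C57BL/6J carries a deletion, had 9.59, 11.7 and 13.2 CPM in TH soleus, against 2.70, 5.61 and 7.91 CPM in B6 soleus, with no overlap. Here and wherever 3 levels are given for a strain, they are those of the lowest, the median and the highest of its 12 libraries. No pair of libraries of the same strain and sex agreed within sampling noise.

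The libraries differed in how read share followed the GC content of genes, and this trend moved with strain. The slope of log2 CPM (counts scaled to library size) on gene GC content averaged 0.0226 ± 0.0528 log2 units per percentage point in TH and -0.0226 ± 0.0405 in B6 (SD, n = 12 each; permutation test, two-sided, p = 0.0283). In males the mean slope was 0.0567 ± 0.0276 in TH and -0.0040 ± 0.0391 in B6 (SD, n = 6 each; exact permutation test, two-sided, p = 0.0108). In females it was -0.0115 ± 0.0507 in TH and -0.0413 ± 0.0353 in B6 (SD, n = 6 each; exact permutation test, two-sided, p = 0.262). The first principal component held 54.2% of the variance, and across the 24 libraries its size of correlation with the slope was 0.981, given as a description. Every gene was therefore tested in a pair of models, one adjusted for sex and one adjusted for sex and the library's GC slope, and the text leads with genes that passed an adjusted p of 0.05 in the same direction in both. Where a pair of log2 fold changes (TH over B6) is given, the sex-adjusted value comes first.

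**Figure D1:**
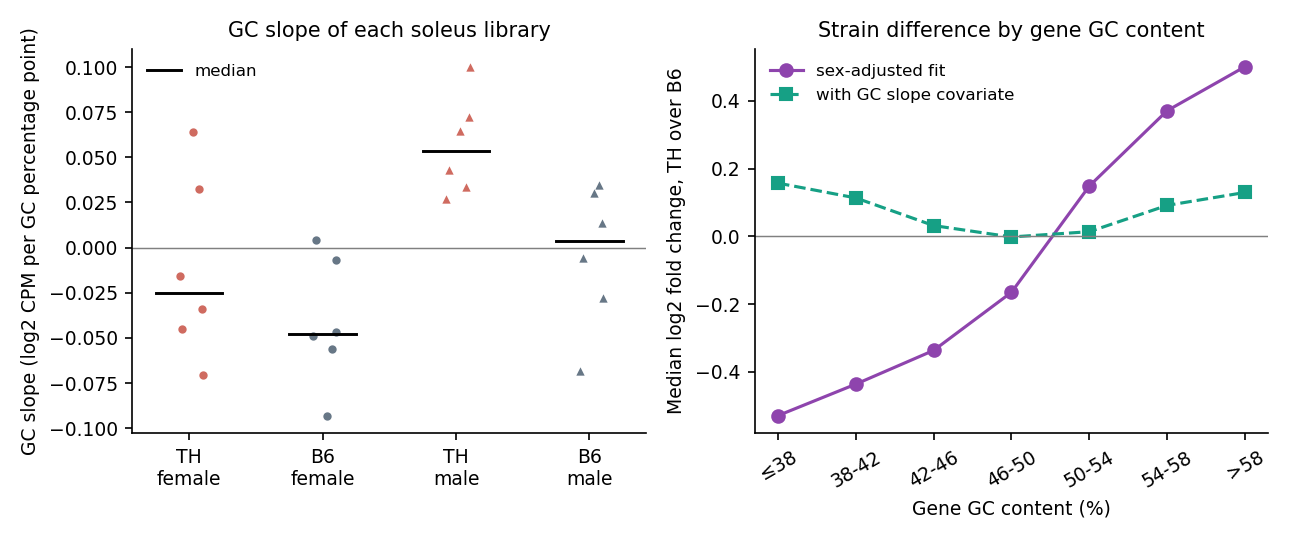
GC trend of the soleus libraries. Left, the slope of log2 CPM on gene GC content in each library (log2 CPM per percentage point), with TH left of B6 in each sex, circles for females, triangles for males and lines at medians. All 6 TH males have slopes from 0.0268 to 0.100, and the B6 males lie between -0.0681 and 0.0345. Right, the median log2 fold change (TH over B6) of genes in 7 bins of GC content, which runs from -0.53 at 38% or less to 0.50 above 58% in the sex-adjusted model and stays between -0.0018 and 0.16 with the slope as a covariate.

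Of 15994 genes tested, 4748 were higher and 3756 lower in TH soleus in the sex-adjusted model (53.2% called). With the GC slope as a covariate 3456 were higher and 2527 lower (37.4% called). In both models 4275 genes were called (26.7%), 14.5% of the genes tested being higher and 12.2% lower, and the lists that follow are read against these shares. The change was past 2-fold in both models for 783 genes. The median log2 fold change of all genes was -0.02 in the sex-adjusted and 0.05 in the GC-adjusted model. The range of TH libraries did not overlap that of B6 libraries for 522 genes (3.26%). All p-values for single genes are from edgeR's quasi-likelihood test with Benjamini-Hochberg adjustment over all genes tested.

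**Figure D2:**
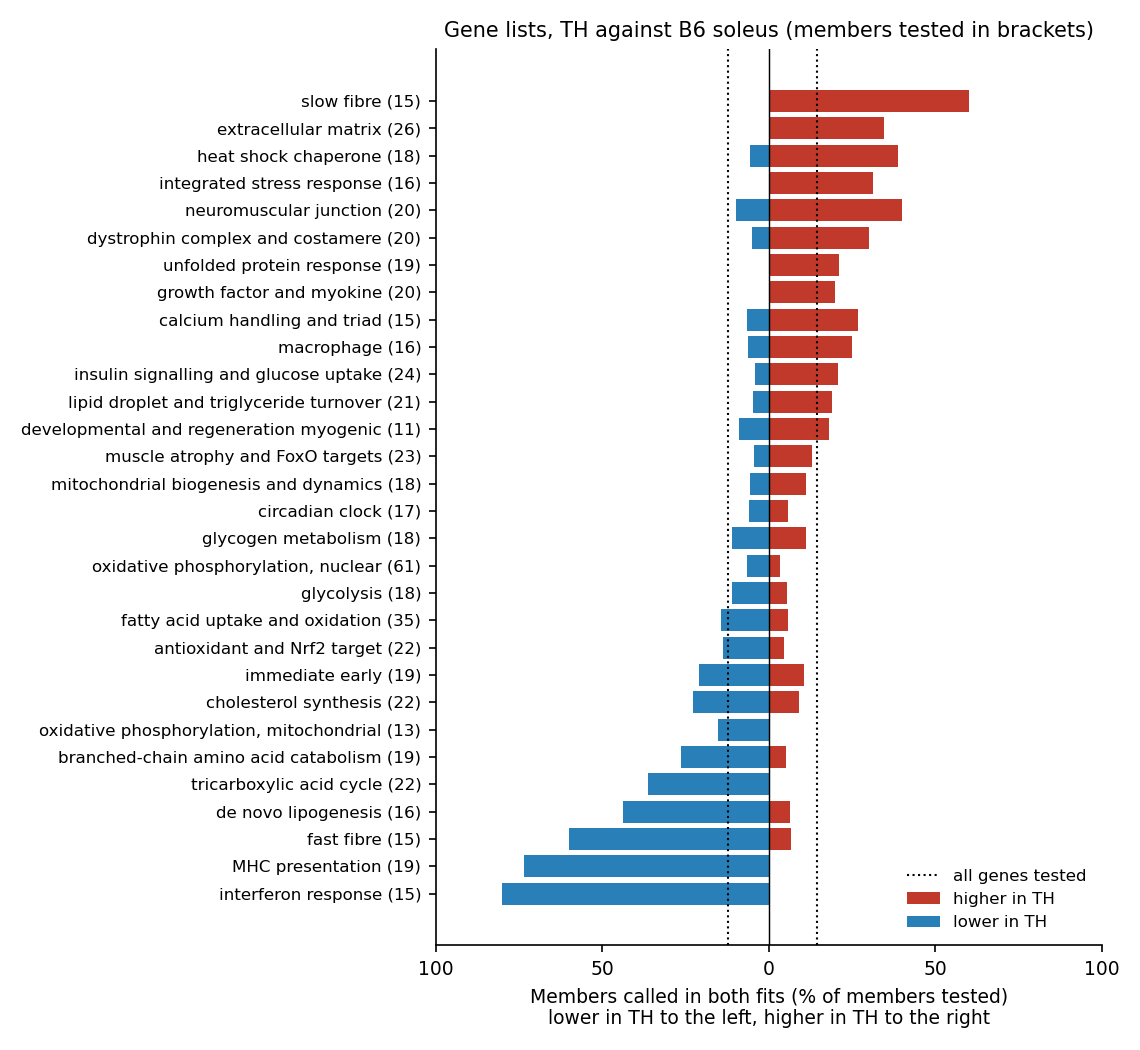
Share of each gene list with at least 10 members tested (% of members tested) that was lower (bars to the left) or higher (bars to the right) in TH than in B6 soleus in both models. Dotted lines mark the shares among all genes tested, 12.2% lower and 14.5% higher. Of the lists drawn, slow fibre and neuromuscular junction reach furthest to the right, and interferon, antigen presentation and fast fibre furthest to the left.

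The myosin heavy chains of TH soleus were shifted to the slow, type I form. Myh7, the type I heavy chain, made up 51.7% at the lowest, 63.0% at the median and 74.8% at the highest of the summed FPKM (a level scaled to gene length and library size) of the 4 adult chains in TH, against 26.9%, 42.6% and 56.03% in B6. The mean share was 63.9% ± 6.40 in TH and 42.6% ± 8.48 in B6 (SD, n = 12 each), a difference of 21.2 percentage points (permutation test, two-sided, p = 2e-05, the smallest that 100000 resamples can give). The strains overlapped only between the lowest TH and the highest B6 libraries. The difference was 20.4 points in females and 22.1 points in males (exact permutation test, two-sided, p = 0.0022 in each sex, the smallest that 6 against 6 allows). It was 20.5 points among the 7 TH and 9 B6 libraries whose GC slope lay within 0.05 of 0 (exact permutation test, two-sided, p = 0.0002).

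The faster chains took smaller shares in TH. Myh1, the type IIx chain, held 9.06% ± 2.53 in TH and 20.3% ± 4.02 in B6, and Myh4, the type IIb chain, held 1.80% ± 0.795 in TH and 6.02% ± 3.59 in B6 (SD, n = 12 each). Myh2, the type IIa chain, held 25.3% ± 3.98 in TH and 31.01% ± 3.54 in B6 (SD, n = 12 each). By permutation test (two-sided) the differences were -11.3 points (p = 2e-05), -4.22 points (p = 0.00014) and -5.75 points (p = 0.0013), and all 4 chains stayed below 0.05 after Benjamini-Hochberg adjustment over the 4. On the FPKM scale the shift lay in the fast chains. Median Myh7 was 1160.0 FPKM in TH and 1105 FPKM in B6, whereas median Myh1 was 178 FPKM in TH and 456 FPKM in B6. In bulk muscle, fewer fibres of a type and less RNA per fibre cannot be told apart.

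**Figure D3:**
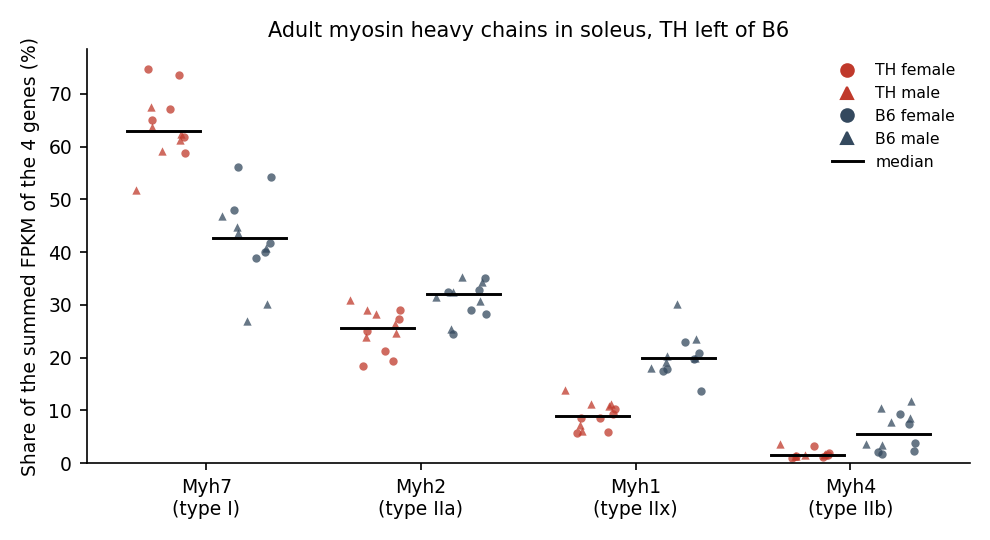
Share of the summed FPKM of the 4 adult myosin heavy chain genes (%, vertical axis) in each soleus library, with 12 TH libraries left of 12 B6 libraries for each chain, circles for females, triangles for males and lines at medians. The median Myh7 share is 63.0% in TH and 42.6% in B6, and Myh1 shares are lower in TH.

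Most slow fibre genes tested were higher in TH soleus. Of 15 slow fibre genes, 9 rose in both models, and the median log2 fold change of the list was 0.46 in the sex-adjusted and 0.40 in the GC-adjusted model. Myl6b, a light chain of slow muscle myosin, had lowest, median and highest levels of 179.8, 247 and 454 CPM in TH soleus, against 62.2, 111 and 169 CPM in B6 soleus. Every TH library lay above every B6 library. Its log2 fold change was 1.34 ± 0.14 (SE; adjusted p = 1.8e-08) in the sex-adjusted model and 0.996 ± 0.09 (adjusted p = 5.8e-10) in the GC-adjusted model. Tnni1, the slow troponin I, had 1784, 3236 and 4631 CPM in TH soleus, against 1068, 1671 and 2064.2 CPM in B6 soleus. The highest B6 libraries reached into the TH range, and the log2 fold changes were 0.91 ± 0.14 and 0.62 ± 0.12 (SE) (adjusted p = 9.2e-06 and 0.00025).

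The same direction was seen in Tnnc1, the slow troponin C (0.64 and 0.45), Tnnt1, the slow troponin T (0.46 and 0.41), Tpm3, the slow tropomyosin (0.36 and 0.55), and Ankrd2, a stretch-responsive sarcomere protein (0.75 and 0.40), all called in both models. Myl2, Myh7b and Myoz2 were the other genes called. Myh7 had a log2 fold change of 0.15 ± 0.09 (SE; adjusted p = 0.16) in the sex-adjusted and 0.23 ± 0.09 (adjusted p = 0.049) in the GC-adjusted model. Atp2a2, the slow calcium pump, was at 0.07 and 0.26, and Casq2, the slow calsequestrin, at -0.24 and -0.11. Myh6, whose sequence is close enough to Myh7 that reads may be split between them, had 3256, 4888 and 6914 CPM in TH soleus, against 1439, 2265 and 2742 CPM in B6 soleus, with log2 fold changes of 1.17 ± 0.10 and 1.23 ± 0.10 (SE) (adjusted p = 2.7e-10 and 4.1e-11). With 1 library left out at a time, 7 to 10 of the 15 stayed called in both models.

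Sln, sarcolipin, a small inhibitor of the calcium pump, was the calcium-handling gene that differed most. It had 142, 248.4 and 397 CPM in TH soleus, against 49.0, 97.2 and 131 CPM in B6 soleus, with no overlap. The log2 fold changes were 1.502 ± 0.15 and 1.26 ± 0.14 (SE) (adjusted p = 1.0e-08 and 4.1e-08). Of 15 calcium-handling and triad genes, 4 rose in both models (Sln, Cacng1, Cacnb1 and Orai1) and Jph1 fell, a fall that did not pass without TH female replicate 2. Ryr1, the release channel, was at 0.02 and -0.03, and Cacna1s, the voltage sensor, at 0.15 and -0.16.

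Fast fibre genes were lower in TH soleus. Of 15 tested, 9 fell in both models and 1 rose, with a median log2 fold change of -0.48 in the sex-adjusted and -0.55 in the GC-adjusted model. The list's median GC content, 53.2%, lies above the 50.1% of all genes tested. Myh4 had 140.2, 218.3 and 500.0 CPM in TH soleus, against 276, 1055 and 2790.1 CPM in B6 soleus. The lower B6 libraries reached into the TH range, and the log2 fold change was -2.28 ± 0.35 (SE; adjusted p = 1.2e-05) in the sex-adjusted model and -1.79 ± 0.40 (adjusted p = 0.00080) in the GC-adjusted model. Myh1 had 798, 1377 and 2033 CPM in TH soleus, against 2581, 3661 and 7319 CPM in B6 soleus, with no overlap and log2 fold changes of -1.65 ± 0.21 and -1.20 ± 0.17 (SE) (adjusted p = 5.0e-07 and 3.2e-06).

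Actn3, the fast-fibre alpha-actinin of the Z-disc, had 17.7, 91.0 and 486 CPM in TH soleus, against 176, 343 and 687 CPM in B6 soleus. The highest TH libraries reached into the B6 range, and the log2 fold changes were -1.74 ± 0.43 and -2.54 ± 0.48 (SE) (adjusted p = 0.0018 and 0.00012). Mybpc2, the fast myosin-binding protein C (-1.58 and -1.68), and Pvalb, the calcium buffer parvalbumin (-1.01 and -1.41), fell likewise, as did Tnnt3 (-0.58 and -0.59), Myl1, Myh2 and Tnnc2. Sypl2, a triad membrane protein, was the member that rose (0.56 and 0.24). Atp2a1, the fast calcium pump, was at -0.01 and -0.35, and Casq1, the fast calsequestrin, at -0.05 and -0.19. With 1 library left out at a time, 8 to 10 of the 15 stayed lower in both models.

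**Figure D4:**
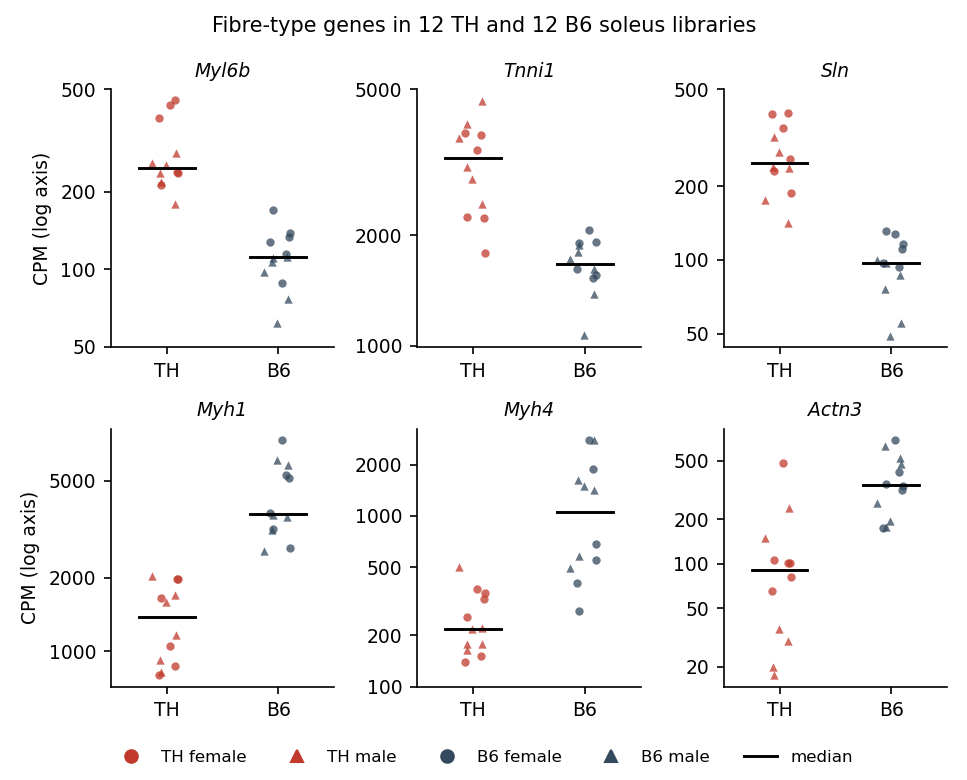
Levels of 6 fibre-type genes (CPM, log axis) in 12 TH and 12 B6 soleus libraries, TH on the left, circles for females, triangles for males and lines at medians. Myl6b, Tnni1 and Sln are higher in TH, and Myh1, Myh4 and Actn3 are lower.

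Markers of other tissue in the sample were read beside these genes. The 6 markers of fast neighbouring muscle summed to 4598 to 8786 CPM in TH and 8902 to 19320.0 CPM in B6, with no overlap, and 5 of the 6 fell in both models. All 6 are also fast fibre genes, so carried-over neighbouring muscle and fast fibres of the soleus cannot be told apart. Adipocyte markers summed to 287 to 589.6 CPM in TH and 308 to 465 CPM in B6, with Lep, Cidec, Adipoq and Plin1 higher in both models of 8 tested. Of the 8, 1 was lower in the GC-adjusted model and not in the sex-adjusted model. Tendon markers summed to 152 to 630.1 CPM in TH and 42.2 to 501 CPM in B6, with 2 of 5 higher. Endothelial markers summed to 461 to 710.0 CPM in TH and 458 to 1222 CPM in B6, with 4 of 7 lower. The GC-adjusted log2 fold changes of the Schwann cell, red blood cell and fibroblast markers ran from -0.42 for Ncmap to 0.58 for Lum, and they did not pass in both models. The part of these cells in the fibre-type differences was not tested.

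Some genes of the neuromuscular junction, the synapse between motor nerve and fibre, were higher in TH soleus. At this synapse the acetylcholine receptor is clustered by the agrin, Lrp4 and Musk pathway. Myogenin drives receptor subunit genes through E-boxes, and the gamma subunit marks the fetal or denervated form of the receptor. Of 20 junction genes tested, 8 rose and 2 fell in both models, and the median log2 fold change was 0.24 in the sex-adjusted and 0.08 in the GC-adjusted model. Among the libraries of small GC slope 5 were higher and 3 lower. The 2 falls became 1 without TH female replicate 2 or 4, TH male replicate 1 or 5, B6 female replicate 2, 5 or 6, or B6 male replicate 3. The list is rich in GC, with a median of 55.5% against 50.1% over all genes.

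The promoters of a pair of receptor subunit genes are shown because all TH libraries lay above all B6 libraries for both genes. They are the 250 bases before the RefSeq start on GRCm38, written 5′ to 3′ on the gene's strand, with the E-box letters CAGCTG in capitals (palindromic, so 1 strand gives both).
Chrng, chr1:87205561-87205810, plus strand: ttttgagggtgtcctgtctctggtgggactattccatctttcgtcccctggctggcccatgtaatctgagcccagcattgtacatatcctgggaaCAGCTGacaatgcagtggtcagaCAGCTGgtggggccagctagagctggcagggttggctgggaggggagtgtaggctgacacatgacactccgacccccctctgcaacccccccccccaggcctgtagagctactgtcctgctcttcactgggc
Chrna1, chr2:73580339-73580588, minus strand: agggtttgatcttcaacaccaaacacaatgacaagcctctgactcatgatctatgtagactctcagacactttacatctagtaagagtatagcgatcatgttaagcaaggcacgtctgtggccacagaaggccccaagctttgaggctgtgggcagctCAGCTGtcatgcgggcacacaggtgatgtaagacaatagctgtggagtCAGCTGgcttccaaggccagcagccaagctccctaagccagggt
Each holds 2 such matches. The letters occur in 4271 of 32851 RefSeq promoters of this length (13%). Counted by gene, they occur in 3979 of 27025 genes (14.7%) and in 6 of the 14 junction genes with a promoter in the table. A match describes letters and is not a measured binding site.

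Chrng, the fetal gamma subunit, had 0.815, 1.81 and 4.07 CPM in TH soleus, against 0.093, 0.330 and 0.769 CPM in B6 soleus. No B6 library reached the lowest TH library, and the log2 fold change was 2.77 ± 0.28 (SE; adjusted p = 1.6e-08) in the sex-adjusted model and 2.34 ± 0.27 (adjusted p = 6.2e-08) in the GC-adjusted model. Chrna1, the alpha subunit shared by fetal and adult receptors, had 116, 137 and 161 CPM in TH soleus, against 53.8, 74.2 and 93.5 CPM in B6 soleus, again with no overlap and log2 fold changes of 0.89 ± 0.08 and 0.73 ± 0.06 (SE) (adjusted p = 1.7e-09 and 1.3e-10). Chrnd, the delta subunit, rose (0.47 and 0.24), whereas Chrne, the adult epsilon subunit, was at -0.03 and -0.33 and Chrnb1 at -0.15 and -0.05.

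Colq, the collagen tail that anchors acetylcholinesterase, had 61.8, 95.5 and 116 CPM in TH soleus, against 29.7, 43.1 and 56.6 CPM in B6 soleus, with no overlap. Its log2 fold changes were 1.10 ± 0.12 and 0.78 ± 0.06 (SE) (adjusted p = 4.9e-08 and 6.3e-11). Dok7 (0.92 and 0.42) and Rapsn (0.79 and 0.39), which act in receptor clustering, rose, while Lrp4, the agrin receptor, fell (-0.38 and -0.29). Musk, the kinase at the centre of that pathway, was at 0.01 and 0.15, and Ache, the esterase itself, at 0.15 and -0.24. The other genes called in both models were Etv4 and Lamb2, which rose, and Lama5, which fell.

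Myog, myogenin, had 25.6, 43.8 and 149 CPM in TH soleus, against 6.05, 12.1 and 21.7 CPM in B6 soleus. All TH libraries lay above all B6 libraries, with a log2 fold change of 2.26 ± 0.26 (SE; adjusted p = 1.2e-07) in the sex-adjusted model and 1.62 ± 0.20 (adjusted p = 2.7e-07) in the GC-adjusted model. Other myogenic regulators did not share this size. Myod1 was at 0.18 and -0.41, Myf6 at 0.16 and 0.12 and Myf5 at -0.80 and -0.36, while Pax7, the satellite cell factor, fell (-0.80 and -0.98; adjusted p = 1.8e-05 and 2.7e-07). Myh3, the embryonic myosin, was at -0.02 and 0.43, and Myh8, the neonatal myosin, at -0.53 and -0.04. Schwann cell markers summed to 155 to 293 CPM in TH and 135 to 1112 CPM in B6.

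Median levels of Chrng and Myog were also higher in TH soleus on chow, and most junction genes were not called there. On chow the strains overlapped for both. Chrng had 1.27, 1.68 and 3.06 CPM in TH soleus, against 0.170, 0.552 and 6.72 CPM in B6 soleus. Myog had 22.1, 29.0 and 39.5 CPM in TH soleus, against 7.71, 10.7 and 24.6 CPM in B6 soleus. Chrng had log2 fold changes of 0.96 and 1.20 and Myog of 1.22 and 1.57 between TH and B6 soleus on chow, and 4 of 20 junction genes were higher and 1 lower in both models, where 12.8% of all genes were higher and 12.9% lower. The difference between diets was 0.21 ± 0.30 (SE; adjusted p = 0.75) for Myog and 1.31 ± 0.63 (SE; adjusted p = 0.31) for Chrng in the GC-adjusted model. In that model 0 of the 20 junction genes were called for a difference between diets, with a list median of 0.05, where 0.656% of all genes were called.

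Interferon-stimulated genes and genes of antigen presentation were lower in TH soleus, with a larger share of members called lower than in any of the other lists drawn. Interferons act through STAT and IRF factors that bind the interferon-stimulated response element, and Nlrc5 is the transactivator of class I antigen-presentation genes. Of 15 interferon-response genes tested, 12 fell in both models, with a median log2 fold change of -1.38 in the sex-adjusted and -1.70 in the GC-adjusted model. Ifi44, Mx1 and Zbp1 did not pass the low-count filter. Of 19 antigen-presentation genes, 14 fell in both models, with a median of -1.01 in the sex-adjusted and -1.31 in the GC-adjusted model. The number lower was 12 of 15 in each fit with 1 library left out and 13 or 14 of 19 for antigen presentation.

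**Figure D5:**
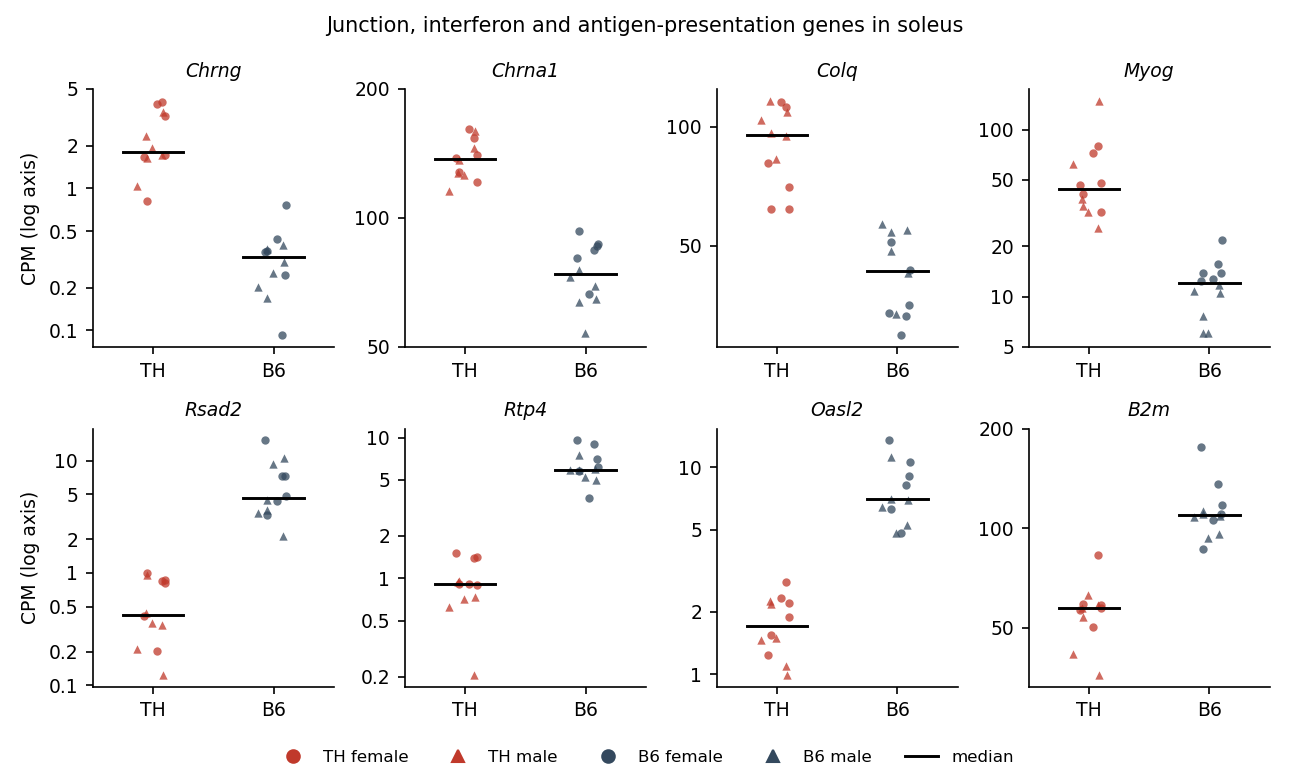
Levels of 4 neuromuscular junction and myogenic genes (top) and of 4 interferon and antigen-presentation genes (bottom) in 12 TH and 12 B6 soleus libraries (CPM, log axis), TH on the left, circles for females, triangles for males and lines at medians. In all 8 panels the TH and B6 libraries do not overlap, with TH higher at the top and lower at the bottom. The 8 genes were picked for display, and other members of their lists, such as Isg15, do overlap. Of all 15994 genes tested, 522 (3.26%) did not overlap.

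Promoters of 3 of these genes are shown because they carry the letters of the response element (GAAA, any 2 bases, then GAAA), searched on both strands and set in capitals (overlapping matches run together). Format and source are as for the receptor promoters.
Isg15, chr4:156200819-156201068, minus strand: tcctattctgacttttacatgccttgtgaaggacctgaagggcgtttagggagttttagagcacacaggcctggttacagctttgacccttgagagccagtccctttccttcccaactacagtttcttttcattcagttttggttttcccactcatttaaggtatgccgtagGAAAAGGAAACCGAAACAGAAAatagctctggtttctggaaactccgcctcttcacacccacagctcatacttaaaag
Rsad2, chr12:26456453-26456702, minus strand: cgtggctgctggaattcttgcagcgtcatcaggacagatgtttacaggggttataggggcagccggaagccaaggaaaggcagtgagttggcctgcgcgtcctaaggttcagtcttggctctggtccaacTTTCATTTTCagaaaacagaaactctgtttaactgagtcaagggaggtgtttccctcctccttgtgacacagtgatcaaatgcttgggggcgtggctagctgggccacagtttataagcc
B2m, chr2:122147437-122147686, plus strand: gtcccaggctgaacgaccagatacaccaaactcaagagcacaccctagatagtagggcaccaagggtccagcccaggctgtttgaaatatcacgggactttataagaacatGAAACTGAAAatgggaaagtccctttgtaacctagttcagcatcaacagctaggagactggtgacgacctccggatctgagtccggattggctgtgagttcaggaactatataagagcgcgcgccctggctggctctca
Isg15 holds 3 matches, and Rsad2 and B2m hold 1 each. The letters occur in 978 of 32851 RefSeq promoters of this length (2.977%). Counted by gene, they occur in 936 of 27025 genes (3.46%). They occur in 6 of 11 interferon-response genes and in 3 of 15 antigen-presentation genes with a promoter in the table. No match in a window says only that these letters are not there.

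Rsad2, the antiviral enzyme viperin, had 0.124, 0.425 and 0.996 CPM in TH soleus, against 2.14, 4.65 and 15.1 CPM in B6 soleus, with no overlap. Its log2 fold change was -3.54 ± 0.33 (SE; adjusted p = 3.6e-09) in the sex-adjusted model and -2.97 ± 0.30 (adjusted p = 4.8e-09) in the GC-adjusted model. Rtp4, an interferon-induced chaperone of receptors, had 0.206, 0.907 and 1.52 CPM in TH soleus, against 3.74, 5.91 and 9.53 CPM in B6 soleus, and Oasl2, a member of the oligoadenylate synthetase family, had 0.990, 1.72 and 2.78 CPM in TH soleus, against 4.81, 6.997 and 13.5 CPM in B6 soleus. Neither gene overlapped between strains, with log2 fold changes of -2.82 and -2.83 for Rtp4 and -2.13 and -2.23 for Oasl2. Isg15, a ubiquitin-like modifier, had 0.181, 0.728 and 1.88 CPM in TH soleus, against 0.879, 3.33 and 5.17 CPM in B6 soleus. Its lowest B6 libraries reached into the TH range, and the log2 fold changes were -1.89 ± 0.27 and -2.351 ± 0.25 (SE) (adjusted p = 3.3e-06 and 1.3e-08). Irf7 (-1.38 and -1.80), a factor of the response itself, fell as well. Ifit3 (0.44 and 0.82), Mx2 (-0.24 and 0.05) and Ifit2 (-0.88 and -0.06) did not pass in both models.

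B2m, the light chain of class I molecules, had 35.9, 57.5 and 82.96 CPM in TH soleus, against 86.4, 109.5 and 176 CPM in B6 soleus, with no overlap and a log2 fold change of -1.01 ± 0.11 (SE; adjusted p = 4.7e-08) in the sex-adjusted model and -0.96 ± 0.12 (adjusted p = 2.7e-07) in the GC-adjusted model. Nlrc5 had 0.419, 1.21 and 1.82 CPM in TH soleus, against 3.26, 6.72 and 19.9 CPM in B6 soleus, with log2 fold changes of -2.71 ± 0.26 and -2.68 ± 0.30 (SE) (adjusted p = 4.2e-09 and 3.9e-08). The class I genes H2-K1 (-1.33 and -1.90) and H2-Q4 (-3.26 and -3.72), the peptide transporter Tap1 (-1.301 and -1.75), the immunoproteasome subunit Psmb9 (-0.78 and -1.31) and the class II genes H2-Aa (-1.85 and -2.21) and H2-Ab1 (-1.69 and -2.10) fell. H2 genes are highly polymorphic between inbred strains and many are near-copies of each other, and reads of both strains were aligned to 1 genome build, so the size of their differences is uncertain. B2m, Nlrc5 and the interferon genes named here lie outside that family, but loss of reads at strain variants was not measured for them either. Class II genes and Cd74 are expressed by immune cells, and lymphocyte genes were near the detection limit, with 14 of 17 not passing the low-count filter and Igkc (-1.10 and -1.69) and Cd79b (-1.03 and -0.94) lower.

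A few macrophage markers were higher in TH soleus. Among 16 macrophage genes tested, 4 rose and 1 fell in both models, where 14.5% of all genes were higher and 12.2% lower. Lgals3, galectin-3, had 4.64, 18.9 and 36.3 CPM in TH soleus, against 2.64, 4.41 and 6.01 CPM in B6 soleus, with log2 fold changes of 2.05 ± 0.21 and 1.52 ± 0.15 (SE) (adjusted p = 1.7e-08 and 4.9e-09). Cd68 (1.48 and 1.02), Trem2 (1.41 and 1.15) and Lyz2 (0.82 and 0.50), all expressed by macrophages, rose, and Mertk, a receptor for dying cells, fell (-1.05 and -0.45). Adgre1, the F4/80 antigen, was at 0.16 and 0.03, and C1qb at 0.50 and -0.05. The 4 rises became 2 without TH male replicate 4. The fall did not pass without TH female replicate 2, TH male replicate 4 or B6 female replicate 2, and 2 genes were lower without TH male replicate 3 or B6 female replicate 1. Among the libraries of small GC slope 7 were higher and 0 lower.

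Several enzymes of the tricarboxylic acid cycle were lower in TH soleus. Of 22 genes of the cycle and the pyruvate dehydrogenase step, 8 fell in both models, and the median log2 fold change was -0.15 in the sex-adjusted and -0.20 in the GC-adjusted model. Idh3a, the catalytic subunit of NAD-dependent isocitrate dehydrogenase, had 150.4, 190.4 and 272 CPM in TH soleus, against 314, 353 and 464 CPM in B6 soleus, with no overlap and log2 fold changes of -0.90 ± 0.11 and -0.66 ± 0.08 (SE) (adjusted p = 3.3e-07 and 6.7e-08). Fh1, fumarase, had 189, 227 and 262 CPM in TH soleus, against 264, 304 and 367 CPM in B6 soleus, also with no overlap (-0.48 and -0.52). Sucla2 (-1.05 and -0.34), Pdha1 (-0.77 and -0.33) and Cs, citrate synthase (-0.28 and -0.33), fell. Ogdh was at 0.04 and -0.23. Sdha, which joins the cycle to the respiratory chain, had 389, 507 and 756 CPM in TH soleus, against 776, 900.4 and 1094 CPM in B6 soleus, with no overlap (-0.71 and -0.47).

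Nuclear genes of the respiratory chain gave a result that turned on the model. Of 61 tested, 22 were higher and 8 lower in the sex-adjusted model, where 29.7% of all genes were higher and 23.5% lower. In the GC-adjusted model 2 were higher and 10 lower, where 21.6% of all genes were higher and 15.8% lower. In both, 2 rose, among them Ndufb5, and 4 fell (Sdha, Cycs, Ndufa12 and Uqcrc2). The 2 rises became 1 without B6 female replicate 4, B6 female replicate 5 or B6 male replicate 3. The 13 mitochondrially encoded genes, whose median GC content is 37.1%, had a median log2 fold change of -0.80 in the sex-adjusted and 0.01 in the GC-adjusted model. Of these, 12 were lower in the sex-adjusted model and 2 in the GC-adjusted model, mt-Co3 (-1.03 and -0.44) and mt-Nd3 (-1.55 and -0.95). mt-Co1, at a median of 11539 CPM in TH and 22198 CPM in B6, had log2 fold changes of -0.80 ± 0.19 and -0.23 ± 0.10 (SE) (adjusted p = 0.0015 and 0.071). Mitochondrial genes share reads with nuclear copies such as Gm29216 and Gm28437, and B6 female replicate 1, the library with the lowest total, stood highest for several of them. On chow 50 of the 61 nuclear genes were lower in TH soleus in both models, where 12.9% of all genes were. In the GC-adjusted interaction of strain and diet the list's median was 0.15, against 0.02 over all genes, and the smallest adjusted p in the list was 0.12 (Uqcrq).

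Several lipid synthesis genes were lower in TH soleus. Of 16 genes of de novo lipogenesis, 7 fell and 1 rose in both models, and the rise did not pass without TH male replicate 3 or 4, B6 female replicate 4, or B6 male replicate 1 or 3. Acaca, the acetyl-CoA carboxylase of lipid synthesis, had 13.7, 23.2 and 28.8 CPM in TH soleus, against 27.9, 46.3 and 65.8 CPM in B6 soleus, with log2 fold changes of -1.13 ± 0.11 and -1.12 ± 0.11 (SE) (adjusted p = 7.1e-09 and 7.1e-09). Elovl6 (-1.07 and -0.92) and Elovl5 (-0.86 and -0.63), which lengthen fatty acids, Acly, which supplies acetyl-CoA (-0.58 and -0.67), and Scd2, a desaturase (-0.68 and -0.50), fell. Fasn was at 0.32 and -0.18 and Scd1, abundant in fat cells, at 0.16 and 0.18. In cholesterol synthesis 5 of 22 genes fell and 2 rose, among them Sqle (-1.03 and -0.92), Hsd17b7 (-1.34 and -1.004) and Sc5d (-1.36 and -0.84). Adipocyte markers, given with the fibre types, were higher in TH for 4 of 8 in both models and lower for 1 in the GC-adjusted model. Their part in the lipid genes was not tested.

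Fatty acid oxidation, glycolysis and insulin signalling changed in few members. Of 35 genes of fatty acid uptake and oxidation, 5 fell (Etfa, Etfdh, Ucp3, Hadha and Slc25a20) and 2 rose (Slc27a4 and Mlycd), with 3 lower when any 1 of 6 libraries was left out. Those were TH female replicates 2 and 5, TH male replicate 3 and B6 male replicates 1, 2 and 3. The 2 rises became 1 without TH female replicate 4, TH male replicate 4, B6 female replicate 2, 4 or 5, or any 1 of the 6 B6 males. Of 18 glycolysis genes, Gpd2 (-1.31 and -0.89) and Pfkfb3 (-0.97 and -0.80) fell and Pgam2 (0.61 and 0.29) rose, a rise that did not pass without B6 female replicate 5. Of 24 insulin-signalling genes, 5 rose and 1 fell, and the count of 5 became 3 without B6 female replicate 4, B6 female replicate 5 or TH male replicate 4. The 1 lower became 3 without TH male replicate 3 and 2 without B6 female replicate 1. Irs1, the insulin receptor substrate, had 20.7, 27.7 and 58.5 CPM in TH soleus, against 7.17, 19.7 and 39.1 CPM in B6 soleus, with log2 fold changes of 0.71 ± 0.18 and 1.02 ± 0.17 (SE) (adjusted p = 0.0019 and 2.1e-05). Socs3, an inhibitor of cytokine and insulin receptors (1.07 and 0.78), and Slc2a1, the basal glucose transporter (0.94 and 0.62), rose, and Enpp1 fell (-0.70 and -0.47). Insr was at -0.29 and 0.25, and Slc2a4, the insulin-responsive transporter, at 0.45 and 0.07.

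Lipid droplet and amino acid genes were mixed. Of 21 lipid droplet genes, 4 rose (Agpat2, Fitm1, Mgll and Dgat1) and Pnpla3, a lipase of droplets, fell (-1.28 and -1.23); the 4 became 2 without TH male replicate 4 or B6 male replicate 3. Of 19 genes of branched-chain amino acid breakdown, 5 fell and 1 rose. Hibadh, an enzyme of valine breakdown, had 122, 152 and 165 CPM in TH soleus, against 177, 189 and 216.4 CPM in B6 soleus, with no overlap (-0.38 and -0.35). The 5 became 3 without TH female replicate 5, B6 female replicate 5 or B6 male replicate 3, and the 1 higher became 2 without TH female replicate 6, TH male replicate 3, or B6 female replicate 2 or 3.

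Several membrane and matrix genes were higher in TH soleus. Dysf, dysferlin, which acts in repair of the fibre membrane, had 193, 308 and 386 CPM in TH soleus, against 64.2, 108 and 118 CPM in B6 soleus. All TH libraries were above all B6 libraries, with a log2 fold change of 1.57 ± 0.12 (SE; adjusted p = 4.3e-11) in the sex-adjusted model and 1.29 ± 0.07 (adjusted p = 6.0e-14) in the GC-adjusted model. Of 20 genes of the dystrophin complex and costamere, 6 rose, among them Sgcd, delta-sarcoglycan (0.94 and 1.01), and Lama2 (0.69 and 0.94), and Sspn fell (-0.50 and -0.20). Dmd, dystrophin, was at -0.35 and 0.64. Of 26 matrix genes, 9 rose in both models, with a median log2 fold change of 0.54 in the sex-adjusted and 0.45 in the GC-adjusted model. They include Col6a2 (1.20 and 0.69) and Col6a1 (0.87 and 0.46), chains of the collagen around fibres, Loxl1 (1.06 and 0.53) and Tgfb1 (0.80 and 0.32). Col1a1 (0.99 and 0.52), Col3a1 (0.57 and 0.41) and Fn1 (-0.18 and -0.50) did not pass in both. The 9 became 5 without TH male replicate 4, B6 male replicate 1 or B6 male replicate 3, and 14 were higher among the libraries of small GC slope. Tendon markers, 2 of 5 higher in TH, moved with these genes, and their part was not tested.

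Stress-response lists differed in how many members were higher in TH soleus. Of all genes tested, 14.5% were higher and 12.2% lower in both models. Nupr1, a stress-induced chromatin protein, had 32.7, 43.5 and 52.3 CPM in TH soleus, against 10.3, 15.1 and 19.5 CPM in B6 soleus, with no overlap and a log2 fold change of 1.48 ± 0.10 (SE; adjusted p = 1.9e-11) in the sex-adjusted model and 1.49 ± 0.11 (adjusted p = 7.5e-12) in the GC-adjusted model. Of 16 genes of the integrated stress response, 5 rose, including the serine synthesis enzymes Psat1 (0.91 and 0.93) and Phgdh (0.99 and 0.56), while Ddit3 was at -0.21 and -0.33 and Atf4 at 0.26 and 0.01. Of 18 heat shock chaperones, 7 rose, mostly small heat shock proteins such as Hspb1 (0.95 and 0.47) and Hspb6 (0.76 and 0.50), and Hspa8 fell (-0.41 and -0.34). Nqo1, a quinone reductase under Nrf2, had 22.2, 30.5 and 38.7 CPM in TH soleus, against 47.4, 54.6 and 60.9 CPM in B6 soleus, with no overlap and log2 fold changes of -0.87 ± 0.09 and -0.998 ± 0.09 (SE) (adjusted p = 5.4e-08 and 1.0e-09). It fell with Gclm and Gsta4 of 22 antioxidant genes, and Mt2 rose (1.49 and 1.22). The 1 higher became 3 without TH female replicate 6 and 2 without TH female replicate 2 or TH male replicate 3.

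Activity-linked early genes split. Egr3 (-2.19 ± 0.37 and -2.24 ± 0.37 (SE); adjusted p = 4.0e-05 and 2.5e-05) and Egr1 (-1.403 ± 0.42 and -1.79 ± 0.40 (SE); adjusted p = 0.0076 and 0.00082), transcription factors induced by stimulation, fell, and Ier3 rose (1.37 and 1.22). Fos was at 0.79 and 0.64 and Nr4a1 at -0.10 and -0.18. Of 19 such genes, 4 fell and 2 rose. The 2 higher became 5 without B6 female replicate 2, 4 without TH female replicate 2 or TH male replicate 1, and 1 without B6 male replicate 1. Of 17 clock genes, Cry2 rose (0.52 and 0.36) and Nr1d1 fell (-0.55 and -1.12). The fall did not pass without TH female replicate 2 or 5, B6 female replicate 5, or B6 male replicate 1, 2, 3 or 6. The count lower was 2 without B6 female replicate 4 or 6 or B6 male replicate 4 and 3 without B6 female replicate 1, and 2 were higher without TH female replicate 1 or B6 female replicate 1. Of 23 genes linked to muscle atrophy, 3 rose and 1 fell, and 2 were lower without TH female replicate 5, with Trim63, the MuRF1 ligase, at 0.32 and 0.38 and Fbxo32, atrogin-1, at -0.59 and -0.07.

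Among genes kept by the naming rule given with the processing, the largest rises by fold were in genes outside these lists, at low to middling levels. B4galnt2, a glycosyltransferase, had 7.37, 9.29 and 19.7 CPM in TH soleus, against 0, 0 and 0.185 CPM in B6 soleus. B6 libraries held 5 counts in all, and 9 of the 12 had none, so the fitted log2 fold change of 8.13 depends on the prior count. Tesc, tescalcin, had 7.49, 16.9 and 35.1 CPM in TH soleus, against 0.659, 1.07 and 1.67 CPM in B6 soleus, and Larp6, a protein that binds collagen mRNA, had 16.8, 28.3 and 36.7 CPM in TH soleus, against 1.85, 2.53 and 4.06 CPM in B6 soleus. Neither overlapped (4.05 and 3.54 for Tesc and 3.36 and 3.08 for Larp6). Rbp7, a retinol-binding protein (3.84 and 3.67), Hirip3 (3.13 and 3.57), Opn1mw, a cone opsin (7.22 and 7.03), Tpsab1, a mast cell tryptase (4.43 and 3.99), and Hamp2, a hepcidin with a near-copy in the mouse genome (4.70 and 4.62), rose as well. B6 libraries held 9 counts of Opn1mw and 19 of Hamp2 in all, so these fold changes depend on the prior count too. Mybph, myosin-binding protein H, had 5.57, 20.3 and 87.8 CPM in TH soleus, against 0.599, 1.52 and 7.09 CPM in B6 soleus, with overlap and log2 fold changes of 3.88 ± 0.42 and 3.31 ± 0.42 (SE) (adjusted p = 5.6e-08 and 3.6e-07). The 14 named by size are completed by Pla2g2f, Abhd1, Pianp, Fam184b and Rcor2.

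The largest falls under the same rule included genes nearly silent in TH. C1s1, a complement protease with a near-copy in the mouse genome, had 0, 0.072 and 0.270 CPM in TH soleus, against 15.8, 32.8 and 38.5 CPM in B6 soleus, with log2 fold changes of -8.19 and -8.23. TH libraries held 13 counts in all, and 4 had none, so these fold changes depend on the prior count. Pttg1, securin, had 1.37, 2.96 and 3.43 CPM in TH soleus, against 65.4, 81.3 and 117 CPM in B6 soleus, and Pcp4l1 had 3.33, 14.5 and 28.9 CPM in TH soleus, against 248.5, 405 and 556 CPM in B6 soleus. No TH library reached the lowest B6 library for either gene (-5.01 and -5.24 for Pttg1 and -4.98 and -5.28 for Pcp4l1). Tgtp1 (-3.48 and -3.25) and Tgtp2 (-3.63 and -3.39), near-identical interferon-induced GTPases whose reads may be split, Neu2, a sialidase (-3.31 and -3.71), Fbxo44 (-3.91 and -4.16) and Rab6b (-3.54 and -3.49) fell. Nxpe4, Eps8l1, Apol10b, Crnde, Rsad2 and H2-Q4 complete the 14 named.

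Most of these differences recurred on chow, and in other tissues the counts cover only those of the genes that could be tested there. Of the 14 rises, 13 were called in the same direction in both models in soleus on chow, as were all 14 falls, where 12.8% of genes were higher and 12.9% lower. The exception was Mybph, at 0.60 and 0.87 on chow. In fat of the same strains on high-fat at this age, 6 of the 9 rises and 12 of the 12 falls tested were called in the same direction (12.8% of genes higher and 13.2% lower). In liver it was 3 of 4 rises and 9 of 12 falls (9.61% higher and 10.7% lower), and in pancreas 1 of 2 rises and 3 of 4 falls (8.43% higher and 9.53% lower). Hamp2, a rise in soleus, was at -0.64 and -0.26 in liver. Liver and fat came mostly from the same mice, so these tissues are not independent animals.

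The strain difference passed a test of dependence on sex for few genes. It was tested in a model with a mean for each strain and sex, without and with the GC slope. The interaction of strain and sex was called for 12 genes without the slope (0.075%) and for 86 with the GC slope as a covariate (0.538%). Mlph, melanophilin, had medians of 11.3 CPM in TH males and 1.26 CPM in B6 males, and of 1.35 CPM in TH females and 0.574 CPM in B6 females. The strain difference was larger in males by 2.16 ± 0.38 (SE; adjusted p = 0.026) on the log2 scale. Angptl7, a secreted angiopoietin-like protein, had medians of 7.20 CPM in TH males and 2.30 CPM in B6 males, against 2.83 CPM in TH females and 3.66 CPM in B6 females, a difference of 2.47 ± 0.41 (SE; adjusted p = 0.026). C4a, a complement gene with a near-copy, and Smoc1, a matrix protein, behaved likewise, at 2.05 ± 0.33 (SE; adjusted p = 0.025) and 2.02 ± 0.38 (SE; adjusted p = 0.047). All 4 passed in both models. Within sex, 2736 genes were called in females (17.1%) and 7652 in males (47.8%) without the GC slope. With the slope, 3752 were called in females (23.5%) and 4929 in males (30.8%).

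The dependence of the strain difference on diet could not be read apart from the GC trend for most genes. The interaction of strain and diet was called for 11564 of 16470 genes (70.2%) in the model with sex, and for 108 (0.656%) with the GC slope. Mean slopes over these 48 libraries were 0.0323 in TH and -0.0118 in B6 on high-fat, and -0.0316 in TH and 0.0111 in B6 on chow, so the strains changed places between diets. In both models the interaction was above 0 for 16 genes (0.0971%) and below 0 for 73 (0.443%).

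Interferon-linked genes were among those that passed in both. Of 15 interferon-response genes, 4 had a strain difference more negative on high-fat than on chow in the GC-adjusted model, as did 4 of 19 antigen-presentation genes, where 0.54% of all genes did. On chow 9 of the 15 and 12 of the 19 were lower in TH in both models, where 12.9% of all genes were. Endothelial markers moved with these genes, with 2 of 7 more negative on high-fat in the same model and a median of -0.51, and their part was not tested. Gbp2, an interferon-induced GTPase, had a median of 6.55 CPM in TH and 21.1 CPM in B6 on high-fat, and of 9.53 CPM in TH and 12.4 CPM in B6 on chow. The interaction was -1.58 ± 0.29 (SE; adjusted p = 0.0041) with the GC slope. Oasl2 (-1.46 ± 0.27 (SE; adjusted p = 0.0045)) and B2m (-0.70 ± 0.17 (SE; adjusted p = 0.039)) also passed. Cd274, the checkpoint ligand PD-L1, had medians of 1.32 CPM in TH and 11.1 CPM in B6 on high-fat, and of 3.59 CPM in TH and 6.48 CPM in B6 on chow (-1.81 ± 0.45 (SE; adjusted p = 0.042)). For Gbp2 and Cd274 the B6 medians were higher on high-fat than on chow, and the TH medians were lower.

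Fibre-type genes did not pass this interaction with the GC slope. On chow 13 of 15 fast fibre genes were lower and 5 of 15 slow fibre genes higher in TH soleus in both models. Of all genes on chow, 12.9% were lower and 12.8% higher. The interaction was 0.85 ± 0.25 (SE; adjusted p = 0.085) for Myl6b, 0.32 ± 0.15 (SE; adjusted p = 0.28) for Tnni1 and 0.11 ± 0.52 (SE; adjusted p = 0.94) for Myh4. Ier3 was the early gene that passed (1.16 ± 0.28 (SE; adjusted p = 0.037)). Cd68 (2.05 ± 0.49 (SE; adjusted p = 0.00056)) and Lgals3 (1.77 ± 0.34 (SE; adjusted p = 0.00011)) were called in the model with sex and, at 1.47 ± 0.58 (SE; adjusted p = 0.21) and 1.05 ± 0.36 (SE; adjusted p = 0.15), not with the GC slope.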

How the data were processed

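Raw read counts per gene were deposited as 1 table of the whole series, per the file headers, and the authors' FPKM table holds their normalized counts divided by gene length, up to 1 constant. Per the labels, RNA with an integrity number above 8 was purified with RNeasy kits, and 1000 ng entered a TruSeq stranded poly(A) library protocol. The submitters' processing notes name GRCm39 as the build and list HISAT2 2.2.1, Trimmomatic 0.39, DESeq, DESeq2 and SAMtools. Which program counted the reads, with which annotation and whether by strand, is not given in the sources used here. Reads of both strains were aligned to 1 build, and the loss of reads at strain variants was not measured.

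Counts of the 24 libraries were tested in R 4.3.3 with edgeR 4.0.16 (TMM factors, quasi-likelihood test, sex as a covariate, Benjamini-Hochberg adjustment, threshold 0.05) after filterByExpr with a minimum count of 10 and a minimum total of 15. Differences within sex, differences on chow in soleus and both interactions came from fits with a mean per group, without and with the GC slope. The groups were of strain and sex, and also of diet where chow libraries entered. CPM values use TMM-scaled totals. The GC slope of a library is the regression of its deviation in log2 CPM on gene GC content, taken from the longest GENCODE M21 transcript (GRCm38) by gene ID for 15794 of the 15994 genes tested (98.7%). FPKM served for the shares of myosin heavy chains, compared by permutation tests in scipy 1.17.1. Genes named by size are the 14 largest rises and 14 largest falls with a mean log2 CPM of at least 1, the 10 highest-level genes past 1.5-fold, and up to 4 genes per direction of each interaction. Members of lists were named as examples beside that rule. Some genes that entered these fits and counts are not reported here. The members and lists were chosen with earlier results of these data known. Replicates are separate mice per the animal numbers in the labels. The labels name no pairing of the strains by replicate number. Correlations of same-numbered mice were not set against other pairs, so a batch shared by number was not tested. Alternatives were RLE factors, no filter, DESeq2 1.42.0, a replicate block, no sex covariate, all soleus libraries, libraries of small GC slope and 1 library left out. The edgeR fits were tested on simulated data that kept the GC trend, where the sex-adjusted model also called unchanged genes, more than the GC-adjusted model did. Those data were drawn from a model of sex and GC slope, so this outcome follows from how they were drawn. The source of the GC trend in the real libraries was not tested. Tables and plots used Python 3.11.15, pandas 2.3.3 and matplotlib 3.10.9. Promoters are from RefSeq (GRCm38.p6). Precision is limited by counting for genes of few counts and by the spread over 12 mice a strain.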

Additional observations from a re-analysis of the deposited data

Results flagged for a closer look

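Among 160 groups of 6 libraries (the genes named by size, the GC slope and the library total), 28 had 1 library far from the other 5, where chance marks about 1 in 20. The groups are not independent, because mitochondrial genes share reads with nuclear copies such as Gm28437, and some flagged levels lie near 0. The 28 can therefore not be read as an excess over that share. B6 female replicate 1 had the lowest total, 5428102 counts. The same library stood highest among B6 females for mt-Co1 (46286 CPM, others at most 26976 CPM), Gm29216 (26203 CPM), mt-Co3 (25171 CPM), Gm28437 (25148 CPM), mt-Co2 (19313 CPM), Gm28661 (19172 CPM), mt-Atp6 (17746 CPM) and Gm10925 (17639 CPM), and lowest for C1s1 (15.8 CPM) and Rcor2 (0.659 CPM). Its GC slope, -0.0931, was the lowest of the 24 libraries. B6 male replicate 4 stood highest among B6 males for mt-Co2 (9626 CPM), Gm28661 (9616 CPM), Gm10925 (7253 CPM) and mt-Atp6 (7246 CPM), and its slope, -0.0681, was the lowest of the B6 males. The part of depth or GC content in these levels was not tested.

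In other B6 libraries, male replicate 2 stood highest for Tgtp2 (43.3 CPM), Tgtp1 (40.9 CPM) and Hamp2 (0.229 CPM), male replicate 5 for Rbp7 (7.27 CPM), male replicate 6 for B4galnt2 (0.056 CPM) and male replicate 4 for Pla2g2f (0.043 CPM). Female replicate 4 stood highest for Rsad2 (15.1 CPM), female replicate 5 for Hamp2 (0.579 CPM) and female replicate 2 for Pla2g2f (0.256 CPM), and female replicate 5 stood lowest for Fam184b (0.289 CPM). Among TH libraries, male replicate 1 stood highest for Mybph (60.5 CPM), female replicate 2 for Fam184b (17.98 CPM) and female replicate 6 for Crnde (0.450 CPM).

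The strain difference depended on sex for Angptl7 (2.47 on the log2 scale, males over females), Mlph (2.16), C4a (2.05) and Smoc1 (2.02). It depended on diet for Mybph (3.26 on the log2 scale, high-fat over chow), Cyp1a1 (2.26), Cd68 (2.05), Lgals3 (1.77), Gbp3 (-2.99), Gpm6b (-2.78) and Iigp1 (-2.77) in the model with sex, and of these 7 Gbp3 passed with the GC slope as well (-1.64, adjusted p = 0.0498, edgeR).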

How the results depend on the processing

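The strain count of 8504 genes was 8500 with RLE factors, 8870 with no filter, 8874 with DESeq2, 7014 with no sex covariate, 9012 with all soleus libraries and 5983 with the GC slope, and 4592 (2323 higher, 2269 lower) among libraries of small GC slope, an alternative chosen after seeing the data, which has 7 TH and 9 B6 libraries. Leaving out 1 library at a time gave 7508 (without B6 male replicate 4) to 9586 (without TH female replicate 2), and 3729 (without B6 female replicate 5) to 4770 (without TH male replicate 3) for the 4275 genes called in both models. The median log2 fold change of all genes was -0.03 with RLE factors or DESeq2. Same-numbered mice of the 2 strains did not deviate together in every pair (correlations -0.63 to 0.64, or -0.02 to 0.43 with the GC trend removed), and the replicate block gave 7987 genes, or 5654 with the GC slope. For strain by sex the 12 genes became 6 with the replicate block, 52 with the block and the GC slope, 86 with the slope alone and 85 with DESeq2. For strain by diet the 11564 genes became 108 with the slope and 192 with the block and the slope. The count in males was 4929 with the slope, against 7652 without, and in liver 3518 against 6266. The causes were not tested beyond the covariates named. Of the 38 genes named by strain difference, all kept direction and call in each fit with 1 library left out, and 5 (mt-Co1, mt-Co2, Gm28661, mt-Atp6 and Gm10925) lost the call with the GC slope. Depth limits genes of few counts, such as Hamp2 and B4galnt2 in B6.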
